A study of Mus musculus with 3 samples.

Results

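Monocytes and macrophages other than microglia made up 244 of the 33528 cell barcodes in 3 single-cell libraries of the mouse retina at postnatal day 6. They were chosen by measured values. A cell with at least 1000 UMIs (unique molecular identifiers, each standing for 1 captured transcript) and at most 15% mitochondrial UMIs had to carry *Ccr2*, *Ly6c2*, *Plac8*, *Mrc1*, *F13a1* and *Lyve1* at a summed level of 10 or more per 10000 UMIs, with at least 2 of these 6 genes detected. It also needed at least 2 UMIs of the myeloid adaptor genes *Tyrobp* and *Fcer1g*. Cells with 3 or more per 10000 of the microglial genes *P2ry12*, *Tmem119* and *Siglech*, 5 or more of the endothelial genes *Cdh5*, *Pecam1* and *Egfl7*, or 50 or more of the neutrophil genes *S100a8* and *S100a9* were left out. These 16 genes are described below only to show what was selected.

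The mice were on a C57BL/6 background and belonged to 3 groups with 1 library each. The groups were WT mice, mice with a germline knockout of *Tspan12* (*Tspan12* KO), which encodes a co-receptor of the Norrin receptor complex, and mice with loxP sites on both *Ctnnb1* alleles and the tamoxifen-inducible *Pdgfb*-iCreER, given tamoxifen as neonates (*Ctnnb1* cKO). *Pdgfb*-iCreER acts in endothelial cells, so *Ctnnb1*, which encodes β-catenin, was targeted in vessels and not in the cells described here, while *Tspan12* was missing from every cell of its mice. The WT and knockout mice did not come from shared litters, whether the WT mice received tamoxifen is not given in the sources used here, and each library pooled retinas of several mice. Retinal cells were enriched with magnetic beads against CD31 and CD11b before droplet capture, and CD11b is carried by microglia, monocytes and macrophages. As each group has 1 library and no replicate, no test was possible, and genotype cannot be told apart from library, pool, enrichment or depth. Every interval is at 95% and covers counting error only.

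Microglia, the resident macrophages of neural tissue, are set apart from other macrophages by genes such as *P2ry12*, *Tmem119* and *Sall1*. Macrophages along vessels and at the borders of the nervous system carry the mannose receptor *Mrc1*, the hyaluronan receptor *Lyve1*, the haemoglobin scavenger receptor *Cd163* and the platelet factor gene *Pf4*, and in the neonatal eye such cells also line the hyaloid vessels, a temporary bed that regresses after birth. Classical monocytes are short-lived blood cells marked by *Ly6c2*, the chemokine receptor *Ccr2* and *Plac8*, and they can enter tissue and become macrophages.

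The gated cells numbered 7 in WT, 18 in the *Tspan12* KO library and 219 in that of *Ctnnb1* cKO. These were 0.0746% of the 9378 WT cells that passed the UMI and mitochondrial limits (interval 0.0300 to 0.154%), 0.155% of the 11585 *Tspan12* KO cells (0.0921 to 0.245%) and 2.70% of the 8121 *Ctnnb1* cKO cells (2.36 to 3.07%). The share was highest in the *Ctnnb1* cKO library by far, but microglia, taken with the same limits and at least 3 per 10000 of *P2ry12*, *Tmem119* and *Siglech*, also took a larger share there. The WT library held 260 of them, *Tspan12* KO 335 and *Ctnnb1* cKO 1247, which was 2.77%, 2.89% and 15.4% of the cells. Since both kinds of cell carry CD11b and went through the same beads, the gated cells were also counted per 100 microglia. WT had 2.69 (1.07 to 5.63), *Tspan12* KO 5.37 (3.15 to 8.62) and *Ctnnb1* cKO 17.6 (15.1 to 20.3), and the *Ctnnb1* cKO interval lay above both others while those of WT and *Tspan12* KO overlapped. Bead enrichment sets both counts, so these ratios describe the libraries and not the retina.

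The libraries held 92684519 UMIs (WT), 137114957 UMIs (*Tspan12* KO) and 37008362 UMIs (*Ctnnb1* cKO). The gated cells had medians of 8410, 7716.5 and 3068 UMIs and the microglia beside them 10942.5, 8388 and 3110, so *Ctnnb1* cKO cells were the shallowest in both. Their median mitochondrial share was 2.11%, 2.49% and 0.357% in the same order, against 2.31%, 1.80% and 0.374% of all barcodes. The selected sum of the 6 rule genes had medians of 55.3 (WT), 42.0 (*Tspan12* KO) and 38.3 (*Ctnnb1* cKO) per 10000. The lowest selected cell stood at 11.4, 10.6 and 11, and the nearest cell below the limit that passed every other one at 0.150, 2.08 and 9.92. Between 5 and the limit lay 17 cells, all from *Ctnnb1* cKO. The limit on microglial genes removed 0, 4 and 55 cells that carried the rule genes, the endothelial limit 0, 1 and 45, and the neutrophil limit 0, 0 and 6. Pairs of libraries shared 21 to 37 barcode sequences, and none of the gated cells had a shared one.

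Among the gated cells, each was placed on a macrophage side or a monocyte side by whether *Mrc1* and *Lyve1* together gave more UMIs than *Ccr2*, *Ly6c2* and *Plac8*. The sides are ranges of a score from rule genes and not cell types. In WT 1 of 7 cells lay on the macrophage side (14.3%, 0.361 to 57.9%), in *Tspan12* KO 17 of 18 (94.4%, 72.7 to 99.9%) and in *Ctnnb1* cKO 210 of 219 (95.9%, 92.3 to 98.1%). Few cells were ambiguous, with 0, 0 and 6 within 1 UMI of the line. Per 100 microglia, WT had 0.385 macrophage-side cells (0.00970 to 2.16), *Tspan12* KO 5.07 (2.92 to 8.25) and *Ctnnb1* cKO 16.8 (14.5 to 19.5). Monocyte-side cells numbered 2.31 (0.839 to 5.09), 0.299 (0.00754 to 1.67) and 0.722 (0.329 to 1.37) in the same order. The 3 macrophage-side intervals did not overlap, and the monocyte-side intervals did. The WT macrophage-side value rests on 1 cell, described below, that also carried many UMIs of microglial genes.

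**Figure D1:**
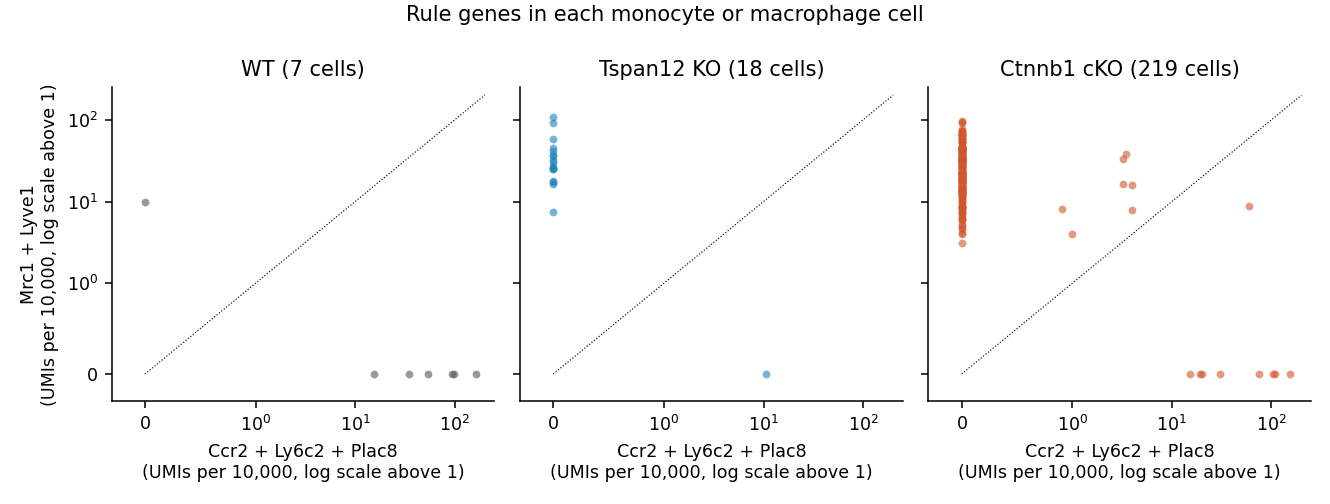
Each point is 1 gated cell, placed by *Ccr2*, *Ly6c2* and *Plac8* (horizontal axis) and by *Mrc1* and *Lyve1* (vertical axis), both in UMIs per 10000 on an axis that is logarithmic above 1, with a dotted line of equality and 1 panel per library. Of the WT cells 6 of 7 lie along the horizontal axis, while 17 of 18 cells from *Tspan12* KO and 210 of 219 from *Ctnnb1* cKO lie above the line.

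The 6 rule genes show which cells the gate took in, and since they chose the cells they do not check the label. In WT the gated cells held 341 UMIs of *Plac8*, 35 of *Ly6c2* and 10 of *Ccr2*, against 3 of *Mrc1*, 2 of *F13a1* and 3 of *Lyve1*. In *Tspan12* KO the balance was the other way, with 418 UMIs of *Mrc1*, 349 of *F13a1* and 116 of *Lyve1* against 9 of *Plac8*, 1 of *Ly6c2* and 0 of *Ccr2*. The *Ctnnb1* cKO cells held 1607, 1191 and 522 UMIs of the macrophage genes and 124, 23 and 4 of *Plac8*, *Ly6c2* and *Ccr2*. *F13a1*, which encodes a coagulation factor subunit carried by macrophages and classical monocytes alike, had UMIs in 199 of 210 macrophage-side and 3 of 9 monocyte-side cells of *Ctnnb1* cKO. *Ly6c1*, a near-identical neighbour of *Ly6c2* that marks endothelial cells and could take its reads, had 0, 2 and 4 UMIs. The gate thus took in cells of a different balance of rule genes in WT and in the knockouts, and WT is described on its own.

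In WT, 5 of the 7 cells carried a monocyte profile, with classical and non-classical genes not cleanly divided between them. Cell 1 (9269 UMIs) had 133 UMIs of *Plac8*, 16 of *Ly6c2*, 1 of *Ccr2* and 202 of *Lyz2*, the lysozyme gene of monocytes and macrophages. Cell 7 (9045 UMIs) had 35 of *Plac8*, 13 of *Ly6c2*, 1 of *Ccr2* and 139 of *Lyz2*, and cell 5 (8410 UMIs) had 11, 2, 0 and 155. Cells 3 (9794 UMIs) and 6 (6495 UMIs) held 92 and 56 UMIs of *Plac8* and 97 and 50 of *Lyz2*, with 0 and 4 of *Ly6c2*, and they led a list of 9 genes of non-classical, patrolling monocytes with 31 and 19 UMIs. The classical marker *Ccr2* had UMIs in 5 of the 6 monocyte-side cells, cells 3 and 6 included. Cell 2 (4844 UMIs) stood apart, with 14 UMIs of *Plac8*, 3 of *Ccr2*, 0 of *Lyz2* and 0 of *Ly6c2*. It held 5 UMIs of the 20-gene monocyte list, against 129 to 337 in the other monocyte-side cells, and 6 of the mast cell and basophil list, all those of the gated WT cells, so it is counted here by its rule genes and not called a monocyte. Cell 4 (6124 UMIs) was the WT cell on the macrophage side, with 3 UMIs of *Mrc1*, 1 of *F13a1*, 3 of *Lyve1* and 14 of *Pf4*, and it also held 85 UMIs of the microglial list. Per 1000000 UMIs this list stood at 13880 in cell 4, against 22447 in WT microglia. On the macrophage side of *Tspan12* KO and *Ctnnb1* cKO it stood at 4131 and 5797. A 20-gene list of border macrophage genes stood at 10124 in cell 4 and 958 in WT microglia. Cell 4 is therefore counted by its rule genes and not given a cell type.

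The monocyte genes that the rule did not use separated the WT cells from microglia. Levels are given as CPM (the UMIs of all cells of a class in a library, scaled to a total of 1000000), and a log2 ratio is taken after adding 10 CPM to both sides, for genes with at least 20 UMIs over both classes. Because the rule drew the line between these cells and microglia, the ratios describe the gate and are no test of a difference. The calcium-binding protein gene *S100a4* stood at 1593 CPM against 8.57 CPM in WT microglia (log2 ratio 6.43) and *S100a6* at 1575 against 4.29 (6.79). *Cybb*, the core subunit of the phagocyte oxidase, stood at 1167 against 15.4 (5.54), and *Lyz2* at 12226 against 1710.0 (2.83). *Hp* (haptoglobin), *Napsa*, *Gda* and *Ifitm6* stood at 408, 482, 574 and 519 CPM and had no UMI in the 260 WT microglia. All 13 genes of the monocyte list with enough UMIs were at least 2-fold higher than in microglia, with a median log2 ratio of 5.54. Over all 9874 genes tested in WT, 10.5% were at least 2-fold higher and 30.1% at least 2-fold lower, with a median of -0.34, shares that rest on 53981 UMIs of the 7 cells. *Il1b*, the interleukin-1β gene, stood at 1019 against 139 CPM (2.79), in 5 of 7 cells, and *Cebpb*, a transcription factor of the monocyte lineage, at 2389.7 against 281 (3.04). *Chil3*, which classical monocytes carry in many tissues, had 0 UMIs, which allows up to 55.6 CPM.

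Monocyte-side cells of the knockout libraries were few. The only *Tspan12* KO cell there (9429 UMIs) held 9 UMIs of *Plac8*, 1 of *Ly6c2*, 0 of *Ccr2*, 7 of *Lyz2* and 36 of the monocyte list, and Scrublet, a program that scores barcodes likely to hold 2 cells, marked it. The 9 *Ctnnb1* cKO cells had 1651 to 4612 UMIs, with 4 to 32 UMIs of *Plac8* each and *Ccr2* in only 1 of them. Cell 36 held 60 UMIs of the microglial list and 6 of the monocyte list, cell 137 held 29 UMIs of MHC class II genes, and cell 206 held 25 UMIs of *Plac8* together with 3 of *Mrc1*, 1 of *Lyve1* and 14 of *Pf4*. The other 6 carried 31 to 60 UMIs of the monocyte list. With 1 and 9 cells, no comparison of the sides was made within a library.

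Markers of other cell types were summed over the gated cells of each library. Dendritic cell genes, which include *Flt3*, *Zbtb46*, *Xcr1* and *Clec9a*, gave 5 (WT), 3 (*Tspan12* KO) and 18 UMIs (*Ctnnb1* cKO), with at most 2 in a cell and 8, 9 and 5 of the 10 genes at 0. Lymphocyte and NK cell genes gave 6, 6 and 28 UMIs, mast cell and basophil genes 6, 3 and 3, and fibroblast or mural genes 0, 1 and 37, of which 33 were in 1 cell. The endothelial list summed to 296, 217 and 373 CPM against 170.4, 90.9 and 332 CPM in microglia, and the photoreceptor list to 148, 339 and 457 against 178, 471 and 198. Genes of other retinal cells summed to 1778, 787 and 911 CPM against 691, 705 and 659. The 15-gene microglial list, 3 of whose genes the gate held low in the gated cells and high in microglia, stood at 4019.9, 3962 and 5796 CPM against 22447, 18453 and 16545 in microglia. Of the 96 UMIs of other retinal genes in the WT cells, 87 were of *Vim*, an intermediate filament gene that many cell types express. The gate limited 3 of the 9 endothelial genes. Endothelial, photoreceptor and other retinal genes were found in the gated cells of every library, and the part of such RNA in the values below was not tested.

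Of the genes that the rule did not use, *Pf4*, the gene of a heparin-binding chemokine made by platelets and tissue macrophages, set the cells of the knockout libraries furthest from microglia. *Pf4* stood at 259 CPM in the WT cells, 7666 in *Tspan12* KO and 7759 in *Ctnnb1* cKO, against 3.57, 1.38 and 61.9 CPM in microglia of the same libraries. The log2 ratio was 9.40 in *Tspan12* KO and 6.76 in *Ctnnb1* cKO, or 12.44 (11.08 to 14.31) and 6.97 (6.80 to 7.14) without the added CPM. Levels in the gated cells were nearly equal between the knockout libraries, whereas the microglial level was far higher in *Ctnnb1* cKO. *Pf4* was found in 17 of 18 cells from *Tspan12* KO and 210 of 219 from *Ctnnb1* cKO, with 0, 81.1 and 195 UMIs per 10000 as the lowest, median and highest cell in *Tspan12* KO and 0, 69.3 and 484 in *Ctnnb1* cKO. After every cell was thinned at random to 1000 UMIs, 94.4% and 91.8% of the gated cells kept a *Pf4* UMI, against 0% (0 of 335, which allows up to 0.896%) and 4.57% of microglia and 0.237% and 3.66% of photoreceptors, which should lack the transcript and had median depths of 4042.5 and 2720 UMIs. The microglial shares were close to those of photoreceptors, and the shares of the gated cells were far above both. Such shares do not show the level in a cell. The highest *Ctnnb1* cKO cell classed as microglia held 108 *Pf4* UMIs per 10000, above the median of the gated cells.

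**Figure D2:**
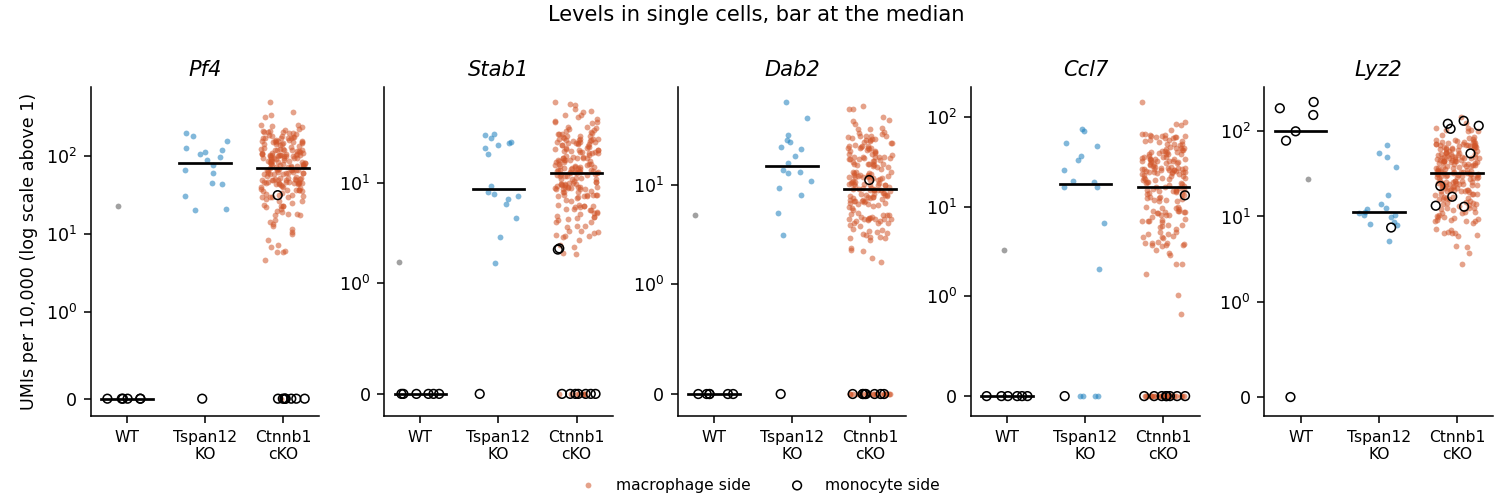
Levels of 5 genes that the rule did not use in every gated cell, in UMIs per 10000 on an axis that is logarithmic above 1, by library, with filled points for the macrophage side, open circles for the monocyte side and a bar at the median. *Pf4*, *Stab1*, *Dab2* and *Ccl7* have medians above 0 in the *Tspan12* KO and *Ctnnb1* cKO cells, and *Lyz2* has its highest median, 99.0, in the WT cells.

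Other genes known from border and perivascular macrophages were higher along with *Pf4*. *Dab2*, an endocytic adaptor gene, stood at 1906 CPM in *Tspan12* KO and 1294 in *Ctnnb1* cKO against 40.5 and 50.1 in microglia (log2 ratio 5.25 and 4.44). The scavenger receptor gene *Stab1* stood at 1289 and 1475 against 149 and 160.1 (3.03 and 3.13), and the ficolin gene *Fcna* at 685 and 686 against 8.64 and 5.94 (5.22 and 5.45). Levels of *Stab1* and *Fcna* in the gated cells differed little between the knockout libraries. *Cd163* stood at 189.9 and 291 CPM. In *Tspan12* KO microglia it had 0 UMIs, so that the gated cells were at least 183-fold higher, and in *Ctnnb1* cKO the log2 ratio was 4.61. *Ms4a7* (658 and 513 CPM, log2 ratio 5.92 and 4.22), the folate receptor gene *Folr2* (278 and 269 CPM, 3.66 and 4.07), the eosinophil-attracting chemokine gene *Ccl24* (509 and 297 CPM, 4.58 and 4.07) and the neonatal Fc receptor gene *Fcgrt* (1072 and 1019.5 CPM, 2.97 and 3.19) followed the same order. The growth factor gene *Igf1* was closer to microglia, with log2 ratios of 0.36 and 0.64.

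Of the 20 border macrophage genes, 14 had enough UMIs in *Tspan12* KO, 13 of them at least 2-fold higher than in microglia and 0 at least 2-fold lower, with a median of 3.87. In *Ctnnb1* cKO 17 were measured, 16 higher and 0 lower, with a median of 3.39. Over all genes tested, 7.33% were at least 2-fold higher and 11.4% lower in *Tspan12* KO (10266 genes, median -0.07) and 3.89% higher and 3.47% lower in *Ctnnb1* cKO (11569 genes, median -0.03). The list was chosen for this kind of cell and the rule drew the contrast, so nothing is read from these counts. In WT 8 of 13 measured genes were higher and 3 lower, on 80 UMIs of which 62 came from cell 4. Lectin genes varied between the cells. *Cd209f* was found in 25 *Ctnnb1* cKO cells at 158 CPM and in 1 *Tspan12* KO cell, and *Clec10a* stood at 58.5 and 13.6 CPM.

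**Figure D3:**
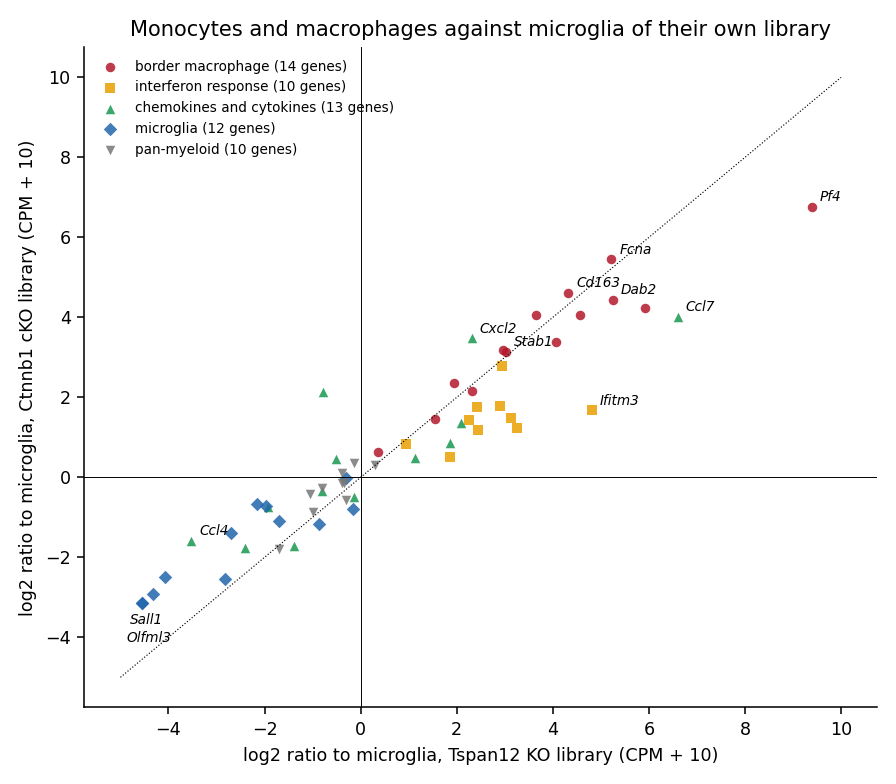
Each point is a gene of 5 lists, placed by its log2 ratio of gated cells to microglia (CPM + 10) in the *Tspan12* KO library (horizontal axis) and in the *Ctnnb1* cKO library (vertical axis), with a dotted line of equality. *Pf4* lies furthest to the upper right at 9.40 and 6.76, and the microglial genes *Sall1* and *Olfml3* lie to the lower left.

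Ranked by the smaller of the ratios in the knockout libraries, the highest genes outside the rule also included the C-type lectin receptor gene *Clec4n* (298 and 439 CPM, log2 ratio 4.76 and 4.64), the ferroxidase gene *Cp* (787 and 831 CPM, 5.08 and 4.48), the lipopolysaccharide hydrolase gene *Aoah* (224 and 269 CPM, 4.45 and 4.27) and the unnamed gene *Gm56663* (427 and 2322 CPM, 5.35 and 4.48). *Clec4n*, *Cp* and *Aoah* stood at similar levels in both libraries. *Gm56663* stood far higher in *Ctnnb1* cKO, and in microglia its log2 ratio of *Ctnnb1* cKO to *Tspan12* KO was 3.29. At the other end, the interleukin gene *Il1a* had log2 ratios to microglia of -5.15 (*Tspan12* KO) and -3.66 (*Ctnnb1* cKO), the protease inhibitor gene *Serpine2* -4.43 and -3.90, the tetraspanin genes *Cd9* -4.40 and -3.56 and *Cd81* -3.49 and -3.04, and the fatty acid receptor gene *Gpr84* -3.81 and -2.92.

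Most microglial genes outside the rule were lower in the gated cells than in microglia. *Sall1*, the transcription factor that maintains microglial identity, had log2 ratios of -4.56 (*Tspan12* KO) and -3.14 (*Ctnnb1* cKO), and *Olfml3* and *Sparc*, which encode secreted matrix proteins, -4.54 and -3.15 and -4.07 and -2.50. The fractalkine receptor gene *Cx3cr1*, which many macrophages share, was nearer to the microglial level at -0.87 and -1.17. Of the 12 genes of the list that the rule did not use, WT had 12 at least 2-fold lower, *Tspan12* KO 9 and *Ctnnb1* cKO 8, and 0 were higher. The rule itself held other genes of this list low in the gated cells and high in microglia, so nothing is read from these counts. Of 10 genes that myeloid cells share, 0 were 2-fold higher and 2 lower in *Tspan12* KO and 0 higher and 1 lower in *Ctnnb1* cKO. Over all genes, 10.5% were higher and 30.1% lower in WT, 7.33% and 11.4% in *Tspan12* KO, and 3.89% and 3.47% in *Ctnnb1* cKO. The growth factor receptor gene *Csf1r* stood at 882 and 1513 CPM (-0.38 and -0.15), while *Itgam*, which encodes CD11b, was lower (-1.70 and -1.80).

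In the knockout libraries, genes of monocyte-attracting chemokines stood above microglia, and in WT *Ccl2* did not. *Ccl7* stood at 37.1 CPM in the WT cells, 2299.7 in *Tspan12* KO and 1974 in *Ctnnb1* cKO, against 22.5, 13.8 and 114 CPM in microglia, with log2 ratios of 6.60 and 4.0 in the knockout libraries. *Ccl2* stood at 167, 1838 and 2893 CPM against 732, 425 and 1131, with ratios of -2.07, 2.09 and 1.35. *Ccl7* therefore set the gated cells further from microglia than *Ccl2* did, and both genes encode ligands of the receptor *Ccr2*. *Ccl12*, the gene of another such ligand, stood at 617 and 1625 CPM against 277 and 1156 (1.13 and 0.49), and the neutrophil chemokine gene *Cxcl2* at 115 and 683 against 15.2 and 52.4 (2.31 and 3.47). *Ccl7* was found in 13 of 18 and 186 of 219 cells, with medians of 17.7 and 16.4 and highest cells at 72.3 and 146 UMIs per 10000. After thinning, 66.7% and 64.4% of the gated cells, 0.597% and 8.26% of microglia and 0.0913% and 1.16% of photoreceptors kept a *Ccl7* UMI.

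The other chemokine and cytokine genes did not move as a block. *Ccl4*, which encodes an inflammatory chemokine, stood at 265 and 1287 CPM in the gated cells against 3151 and 3902 in microglia (-3.53 and -1.59), so microglia held more of it. *Ccl3* differed by less than 2-fold (-0.13 and -0.50). *Il1b* was lower than in microglia in both knockout libraries (-2.40 and -1.77), as was *Cxcl10* (-1.40 and -1.71), while *Tnf* stood at 353 and 718 CPM (1.87 and 0.85). *Ccl8*, another monocyte chemokine gene, reached 62.4 CPM in *Ctnnb1* cKO (2.66), in 18 cells. Of the 18 genes in the list, 5 of 13 measured were at least 2-fold higher and 4 lower in *Tspan12* KO (median -0.51), and 6 of 16 higher and 3 lower in *Ctnnb1* cKO (median 0.47). In WT 4 of 14 were higher and 9 lower (median -2.09). Over all genes, 10.5% were higher and 30.1% lower in WT, 7.33% and 11.4% in *Tspan12* KO, 3.89% and 3.47% in *Ctnnb1* cKO.

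**Figure D4:**
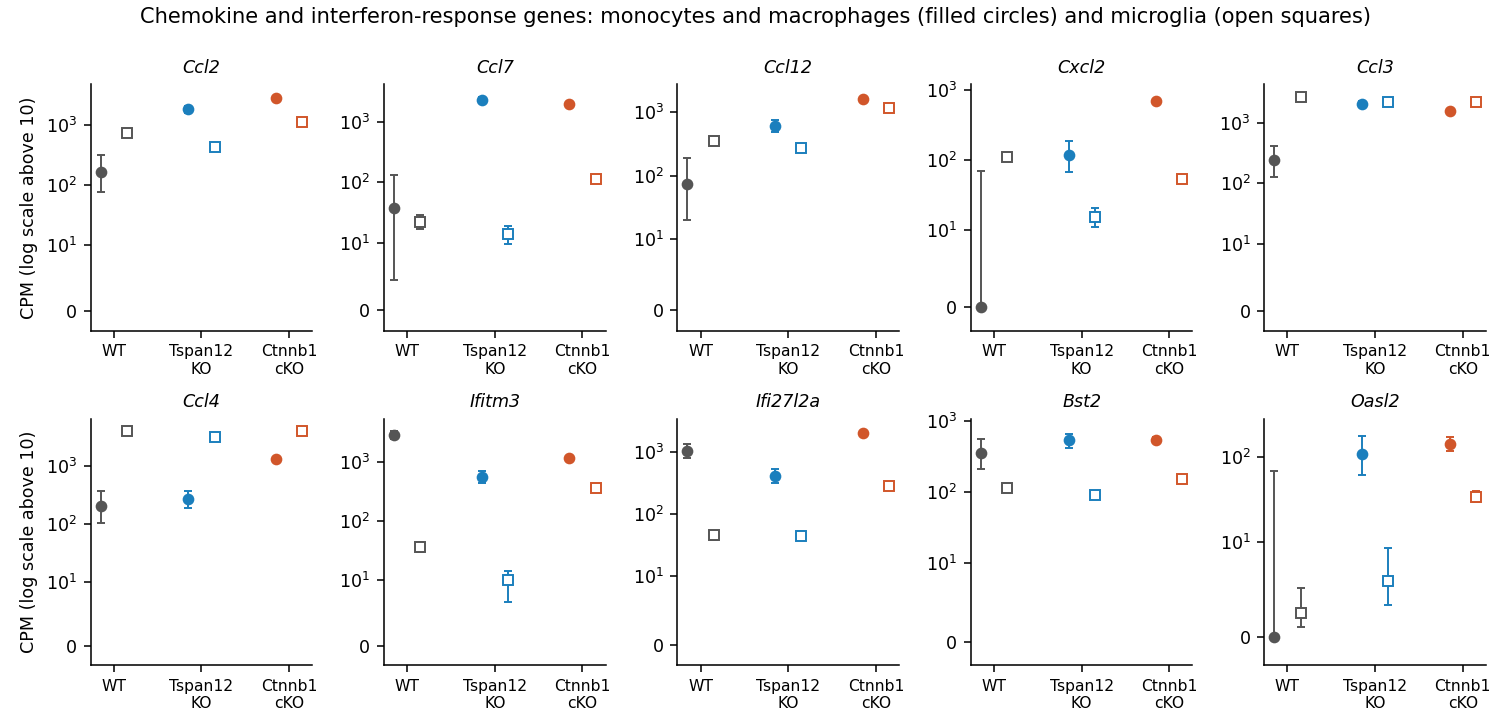
Levels in CPM (axis logarithmic above 10) of 6 chemokine and 4 interferon-response genes in the gated cells (filled circles) and microglia (open squares) of each library, with exact Poisson 95% intervals that cover counting error only. *Ccl7* stands at 2299.7 and 1974 CPM in the gated cells of the knockout libraries, above 13.8 and 114 in microglia, and *Ccl4* stands below microglia in every library.

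Single receptor genes stood above or below microglia. *Ccr1*, a receptor for inflammatory chemokines, stood at 224 CPM in *Tspan12* KO and 209 in *Ctnnb1* cKO against 7.95 and 12.1 in microglia (3.70 and 3.31). *Tgfbr1*, a receptor gene for TGF-β, the factor that microglia depend on, was lower (-2.40 and -2.95). Of 11 receptor genes, 1 of 10 was higher and 5 lower in *Tspan12* KO, and 1 of 11 higher and 4 lower in *Ctnnb1* cKO. Among Fc and pattern receptors, the inhibitory Fc receptor gene *Fcgr2b* stood at 678 and 522 CPM (2.50 and 2.05), and 2 of 9 were higher and 1 lower in *Tspan12* KO and 3 of 10 higher and 0 lower in *Ctnnb1* cKO. Beside these counts, 7.33% of all genes were higher and 11.4% lower in *Tspan12* KO, and 3.89% and 3.47% in *Ctnnb1* cKO.

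Most complement genes measured in *Ctnnb1* cKO kept within 2-fold of microglia. The C1q chains *C1qa*, *C1qb* and *C1qc* had log2 ratios of -0.68, -1.21 and -0.85 in *Tspan12* KO and 0.05, -0.51 and -0.30 in *Ctnnb1* cKO. Properdin (*Cfp*), which stabilises the alternative pathway convertase, stood apart at 204 and 177 CPM (4.19 and 3.90), with the C5a receptor gene *C5ar1* at 0.81 and 1.51. Of 11 complement genes, 1 of 8 was higher and 2 lower in *Tspan12* KO and 4 of 10 higher and 0 lower in *Ctnnb1* cKO. The shares of all genes were 7.33% higher and 11.4% lower in *Tspan12* KO, and 3.89% and 3.47% in *Ctnnb1* cKO. MHC class II genes, which present antigen to T cells, were scarce, at 8 UMIs in *Tspan12* KO and 136 in *Ctnnb1* cKO, or 54.3 and 173 CPM against 248 and 238 in microglia. *Cd74*, the invariant chain gene, kept a UMI in 0% (0 of 18, which allows up to 16.7%) and 5.02% of thinned cells, against 2.39% and 3.29% of microglia and 0.0183% and 0.578% of photoreceptors.

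Genes of scavenging and lipid handling fell into a part higher and a part lower than in microglia. *Apoe*, which encodes the main lipid carrier protein of glia and macrophages, stood at 25099.7 CPM in *Tspan12* KO and 24968 in *Ctnnb1* cKO against 14215 and 16209 in microglia (0.82 and 0.62). The scavenger receptor gene *Msr1* (3.45 and 2.56) and the phospholipid transfer protein gene *Pltp* (2.41 and 2.41) were higher. The lysosomal protease genes *Ctsd* (-2.90 and -1.91) and *Ctsb* (-1.38 and -0.78), the lipid receptor gene *Trem2* (-2.47 and -1.25), *Spp1* (osteopontin, -4.53 and -2.55) and the lipoprotein lipase gene *Lpl* (-4.78 and -2.39) were lower, and the last 3 are also known from phagocytic microglia of development. *Mertk*, a receptor for apoptotic cells, differed by less than 2-fold (-0.66 and -0.34). Of 21 genes, 3 of 19 were higher and 9 lower in *Tspan12* KO and 4 of 20 higher and 6 lower in *Ctnnb1* cKO. Among all genes 7.33% were higher and 11.4% lower in *Tspan12* KO, and 3.89% and 3.47% in *Ctnnb1* cKO. Among iron genes, the exporter *Slc40a1* stood at 400.2 and 122 CPM (1.79 and 1.21) and biliverdin reductase B (*Blvrb*) and transferrin (*Trf*) had ratios of 1.67 and 2.05 and of 1.39 and 1.38. The haem oxygenase gene *Hmox1* stood below microglia in *Tspan12* KO (-2.27) and within 2-fold in *Ctnnb1* cKO (0.43).

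Most of the interferon-response genes measured were higher in the gated cells than in microglia in every library, and the promoters of several carry the element that interferon-activated factors bind. The interferon-stimulated response element (ISRE) was searched as GAAANNGAAA, or TTTCNNTTTC on the other strand, from 250 bases before to 50 bases after the transcription start of RefSeq genes on GRCm38.p6. Matches of the element that overlap each other were counted as 1 promoter. It was found in 6 of the 10 list genes with a window (60%), in 0 of 15 border macrophage genes, in 1 of 12 chemokine and cytokine genes (8.33%) and in 3.99% of all 27025 genes. The following 30-base stretches, written 5′ to 3′ on the gene's strand with the match in capitals, are shown because these genes are described below, with 1 match each where a promoter held several. *Ifitm3* is the other gene with a match. *Isg15*, at chr4:156200871-156200900 on the minus strand, and *Bst2*, at chr8:71537577-71537606 on the minus strand, hold the element as written. *Ifit1*, at chr19:34640794-34640823 on the plus strand, *Ifit3*, at chr19:34583397-34583426 on the plus strand, and *Rsad2*, at chr12:26456553-26456582 on the minus strand, hold its reverse complement.
Isg15: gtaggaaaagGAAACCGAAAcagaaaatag
Bst2: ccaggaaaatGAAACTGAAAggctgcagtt
Ifit1: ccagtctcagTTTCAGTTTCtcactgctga
Ifit3: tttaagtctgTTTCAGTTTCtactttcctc
Rsad2: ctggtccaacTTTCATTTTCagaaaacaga
The first base of the match lies 72, 124, 85, 122 and 120 bases before the transcription start in the order listed. A match is a description of the sequence and not a measured binding site. The list was picked as interferon-response genes, so its share of matches describes the list and not these cells. Interferon signalling in the cells was not tested.

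*Ifitm3*, which restricts the entry of viruses, stood at 2834 CPM in the WT cells, 556 in *Tspan12* KO and 1175 in *Ctnnb1* cKO, against 36.1, 10.03 and 362 in microglia (log2 ratio 5.95, 4.82 and 1.67). *Ifi27l2a* stood at 1056, 414 and 2040.3 CPM against 45.4, 45.0 and 288 (4.27, 2.95 and 2.78). The tetherin gene *Bst2* stood at 529 and 541 CPM in the knockout libraries (2.41 and 1.77), and *Isg15*, a ubiquitin-like modifier gene, had ratios of 2.45 and 1.18. The WT cells, mostly on the monocyte side, held the highest *Ifitm3* level and the *Ctnnb1* cKO cells the highest *Ifi27l2a* level, and for both genes microglia were highest in *Ctnnb1* cKO. *Oasl2* (2.90 and 1.79) and *Ifi204* (3.13 and 1.48) were also higher, and *Ifit1* (1.32), *Ifit3* (1.70), *Rsad2* (1.97) and the regulator *Irf7* (1.94) had enough UMIs in *Ctnnb1* cKO and were higher there. Of the 16 genes, 6 of 8 measured were at least 2-fold higher than in microglia in WT (median 2.35), 9 of 10 in *Tspan12* KO (2.67) and 12 of 16 in *Ctnnb1* cKO (1.46), and 0 were lower in each. The shares over all genes were 10.5%, 7.33% and 3.89% higher and 30.1%, 11.4% and 3.47% lower in the same order. After thinning, 55.6% and 58.9% of the gated cells kept an *Ifitm3* UMI, against 0.597% and 27.7% of microglia and 0.639% and 20.2% of photoreceptors, so the *Ctnnb1* cKO background for this gene was high. For *Ifi27l2a* the shares were 44.4% and 63.5%, 3.28% and 16.4%, and 0% and 2.31%. For *Isg15* they were 0% (0 of 18, which allows up to 16.7%) and 6.85%, 0.299% and 3.21%, and 0.0183% and 1.16%. On the *Ctnnb1* cKO macrophage side alone 5.24% of cells kept an *Isg15* UMI.

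Of the targeted genes, *Ctnnb1* stood at 167 CPM in the WT cells, 156 in *Tspan12* KO and 99.3 in *Ctnnb1* cKO, against 182, 195 and 128 in microglia. *Tspan12* had 0, 1 and 1 UMIs in the gated cells. Neither value checks the labels, since the *Ctnnb1* deletion was endothelial and these cells hardly carry *Tspan12* in any library. The ligand gene *Wnt7b*, through which macrophages are known to prompt regression of the hyaloid vessels, had 0 UMIs in the gated cells of all 3 libraries, as had *Wnt5a* and *Wnt11*, which allows up to 55.6, 20.4 and 3.82 CPM. The co-receptor gene *Lrp6* was higher than in microglia (2.22 and 1.24) and *Lrp5* was not 2-fold different (-0.07 and 0.05). Of 14 pathway genes, 2 of 5 were higher and 1 lower in *Tspan12* KO and 1 of 8 higher and 0 lower in *Ctnnb1* cKO. For all genes the shares were 7.33% higher and 11.4% lower in *Tspan12* KO, and 3.89% and 3.47% in *Ctnnb1* cKO.

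Among genes that act on vessels and matrix, the VEGF and semaphorin co-receptor gene *Nrp1* stood at 583 and 452 CPM against 141 and 186 in microglia (1.97 and 1.23). The pericyte growth factor gene *Pdgfb* was lower (-4.25 and -2.64), as was the metalloprotease inhibitor gene *Timp2* (-1.60 and -1.28). *Vegfa* stood at 20.4 and 7.64 CPM, a level of 3 and 6 UMIs. Of 20 genes, 1 of 10 was higher and 4 lower in *Tspan12* KO and 3 of 16 higher and 2 lower in *Ctnnb1* cKO. Of 16 transcription factor genes, 3 of 13 were higher and 4 lower in *Tspan12* KO, 2 of 14 higher and 2 lower in *Ctnnb1* cKO, and 4 of 13 higher and 6 lower in WT. Beside both lists, 7.33% of all genes were higher and 11.4% lower in *Tspan12* KO, and 3.89% and 3.47% in *Ctnnb1* cKO. In WT these shares were 10.5% and 30.1%. *Klf4* (2.29 and 1.27) and *Cebpb* (1.08 and 1.30) were higher than in microglia, and *Irf8* stood at -1.27 and -0.75.

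Some of the gated cells were dividing. Cycling cells were those with 3 or more UMIs over 12 mitotic genes, among them *Mki67*, *Top2a* and *Cdk1*, after thinning to 2000 UMIs. By this count 0 of 7 WT cells (up to 42.9% by 3 counts of the total), 4 of 17 *Tspan12* KO cells (23.5%, 6.81 to 49.9%) and 18 of 200 *Ctnnb1* cKO cells (9.0%, 5.42 to 13.9%) were cycling, with 0, 1 and 19 shallower cells left out. Among microglia the shares were 7.63% (4.58 to 11.8%), 8.78% (5.91 to 12.4%) and 13.4% (11.5 to 15.6%). The intervals of gated cells and microglia overlapped in every library. All of the cycling cells were on the macrophage side. Without thinning, the shares were 0%, 22.2% and 12.8% in the gated cells and 22.7%, 17.0% and 16.8% in microglia.

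The knockout libraries, with 17 of 18 and 210 of 219 cells on the macrophage side, were then set against each other. Among border macrophage genes the log2 ratios of *Ctnnb1* cKO to *Tspan12* KO were 0.02 for *Pf4*, 0.00 for *Fcna* and 0.19 for *Stab1*. The 18 measured genes of that list ranged from -0.76 to 2.83 (median -0.06), with 2 at least 2-fold higher and 0 lower. *Apoe*, which is not in that list and which microglia also carry, had a ratio of -0.01. Chemokine and cytokine genes stood higher in *Ctnnb1* cKO, 10 of 14 at least 2-fold and 0 lower (median 1.24), or 8 of 14 on the macrophage side alone, among 9.87% of all 6649 genes tested higher and 8.95% lower (median -0.03). In microglia of the same libraries 8 of 14 were higher and 2 lower (median 1.21), while 2.21% of genes were higher and 2.90% lower. *Ccl4* had a log2 ratio of 2.24 in the gated cells and 0.31 in microglia, *Cxcl2* 2.47 and 1.31, *Il1b* 2.33 and 1.70, and *Ccl12* 1.38 and 2.02. Of the interferon-response genes, 4 of 15 were higher and 1 lower in the gated cells (median 0.25), and 11 of 16 higher and 0 lower in microglia (median 1.06), where the sums rest on far more cells. *Ifitm3* had ratios of 1.07 and 4.22. None of these differences between the cell types was tested. *Ifi27l2a* stood higher in both (2.27 and 2.44).

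Some of the genes with the highest ratios in the gated cells were at least 2-fold higher in microglia too. The basement membrane collagen genes *Col4a1* (3.17 in the gated cells, 3.06 in microglia) and *Col4a2* (4.13 and 3.22) and the ribosomal protein gene *Rpl35* (3.34 and 3.28) were higher in both cell types. Endothelial genes, which the collagens accompany in vessels, were also higher, 2 of 4 measured in the gated cells (median 0.79) and 3 of 6 in microglia (median 1.28), with 0 lower in both, and their part in the collagen values was not tested. Of all genes 9.87% were higher in the gated cells and 2.21% in microglia. The metallothionein gene *Mt1* stood at 224 CPM in *Tspan12* KO and 2103 in *Ctnnb1* cKO (3.18 against 1.29 in microglia). *Ccn1*, the gene of a secreted matrix protein, stood at 20.4 and 341 CPM (3.53 against 0.97), in 101 of 219 *Ctnnb1* cKO cells. *Ccrl2* (3.38 and 1.03 in microglia), an atypical chemokine receptor gene, *Tagap1* (3.38 and 1.85), the globin gene *Hba-a1* (3.07 and 0.64) and the serum amyloid gene *Saa3* (3.02) had 0 UMIs in the *Tspan12* KO cells, where 3 counts correspond to 20.4 CPM, so their ratios depend on the added CPM. Of *Saa3*, 56 UMIs came from 13 cells.

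Of 20 scavenging genes 3 were at least 2-fold higher in *Ctnnb1* cKO and 1 lower, and of 10 Fc and pattern receptor genes 3 were higher and 3 lower, beside 9.87% and 8.95% of all genes. Single genes named from the lists after their values were seen were *Spp1* (2.96 and 0.98 in microglia), the lysosomal membrane protein gene *Gpnmb* (2.67 and 0.52), the urokinase receptor gene *Plaur* (2.67 and 0.45) and *Tlr2* (2.32 and 0.36), a receptor for bacterial lipoproteins. *Gpnmb* UMIs were in 29 of 219 cells and *Plaur* UMIs in 54. The fatty acid scavenger *Cd36* was the other way, at 353 CPM in *Tspan12* KO and 45.8 in *Ctnnb1* cKO (-2.70 against 0.66 in microglia), and after thinning 22.2% and 3.65% of the gated cells kept a *Cd36* UMI. *Clec7a*, the β-glucan receptor gene, was lower in the gated cells (-2.46) and in microglia (-2.99), and *Slc40a1* (-1.63) and *Klf4* (-1.64) were lower in the gated cells. In these differences between 18 and 219 cells, genotype and library cannot be told apart.

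The 10 lowest ratios included genes best known from neurons, such as the channel gene *Asic2* (-4.14 in the gated cells, -1.36 in microglia) and *Kirrel3* (-4.14 and 0.31). In the *Tspan12* KO library 1 cell of 21944 UMIs held 350 of the UMIs of these 10 genes (86.0%), the monocyte-side cell held 36 (8.85%) and a further cell 5. Scrublet marked all of these cells. The values thus rest mostly on 1 barcode. Leaving out all Scrublet-marked barcodes removed 3 gated cells of *Tspan12* KO and 24 of *Ctnnb1* cKO. Then 491 genes in place of 595 were at least 2-fold lower in *Ctnnb1* cKO, and 713 in place of 656 higher. The part of the *Tspan12* KO barcodes alone in these changes was not tested.

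**Figure D5:**
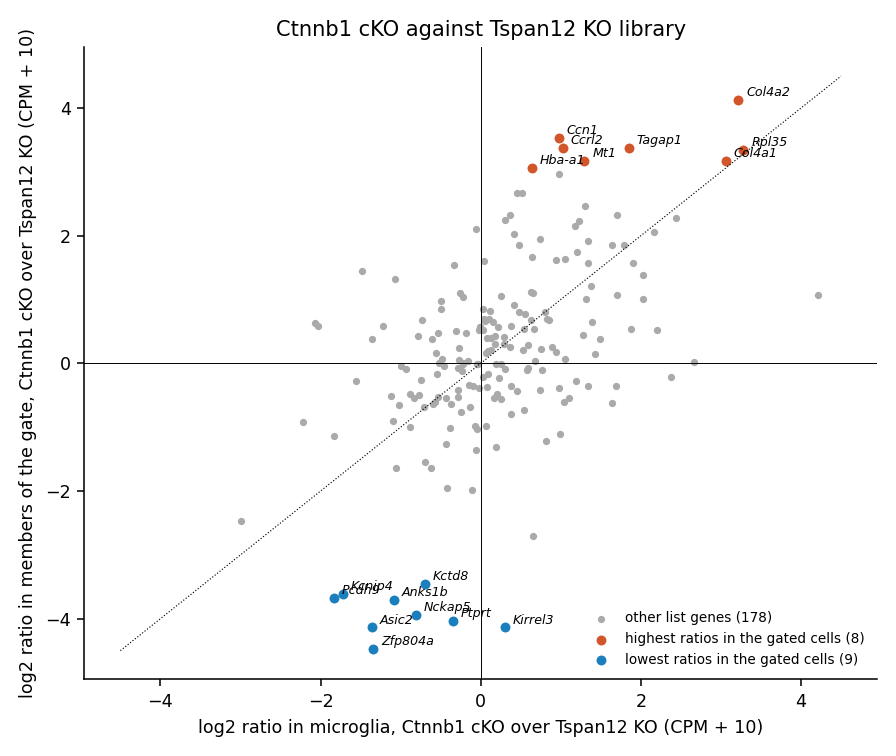
Each point is a gene, placed by its log2 ratio of the *Ctnnb1* cKO to the *Tspan12* KO library (CPM + 10) in microglia (horizontal axis) and in the gated cells (vertical axis), with the dotted line of equality and with the reported genes of highest and lowest ratio in the gated cells named. *Saa3* is not drawn because it had too few UMIs in microglia. *Col4a1*, *Col4a2* and *Rpl35* lie near the line, and *Mt1* and *Hba-a1* lie above it.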

How the data were processed

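Retinal cells of WT, *Tspan12* KO and *Ctnnb1* cKO mice were profiled with Chromium 3′ v3 reagents, 1 library each. The deposited matrices hold raw UMI counts per gene and barcode, made by the authors in Cell Ranger (8.0.1 in the matrix headers). The submitters' notes name GRCm39 and the methods another build, so no gene coordinates are given beyond promoter windows, which carry their own build. The lowest deposited barcode had 500 UMIs. Cells of 1000 or more UMIs and no more than 15% mitochondrial UMIs were gated as stated in the results. Doublets were not removed. As an alternative, the highest Scrublet scores (scanpy 1.11.5) were removed at 0.8% per 1000 cells, which took 792, 1665 and 670 barcodes, among them 0, 3 and 24 gated cells. The gated cells and the gene lists were chosen with earlier results of these data known.

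All UMIs of a class in a library were added up and scaled to CPM by the class total. Ratios used a pseudocount of 10 CPM and genes with at least 20 UMIs over both classes. The pooling of cells as replicates was not followed, because a group has 1 library. Intervals are exact Poisson (CPM), exact conditional binomial (ratios and counts per microglia) and Clopper-Pearson (shares) at 95%, and where a count was 0 its limit was 3 counts of the total. They cover counting error only. Microglia met *P2ry12*, *Tmem119* and *Siglech* at 3 or more per 10000 with rule genes under 10, and photoreceptors a list of 4 genes, among them *Nrl*, *Crx* and *Sag*, at 10 or more with at least 2 of the genes found and no UMI of *Tyrobp* or *Fcer1g*. Cells were thinned by drawing UMIs at random without replacement. Genes named are members of the lists, the 10 highest and 10 lowest ratios of a comparison outside the rule, mitochondrial and sex-linked genes, the targeted genes and *Ly6c1*, and some of them are not reported here. The steps were checked on simulated counts. Python 3.11.15, numpy 2.4.6, scipy 1.17.1, pandas 2.3.3, matplotlib 3.10.9, R 4.3.3 and edgeR 4.0.16 (trimmed mean of M values only) were used. Other alternatives were other gate limits, other scaling, filters and pseudocounts, and means over cells.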

Additional observations from a re-analysis of the deposited data

Results flagged for a closer look

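For 10 genes named in the text the log2 ratio of gated cells to microglia was at least 2-fold higher in 1 library and at least 2-fold lower in another, and that difference between libraries was not tested. Given in the order WT, *Tspan12* KO, *Ctnnb1* cKO, *Il1b* stood at 2.79, -2.40 and -1.77, and the matrix gene *Fn1* (fibronectin) at 2.63, -2.82 and -2.60. These genes were higher than in microglia in WT, from 55 UMIs of *Il1b* and 18 of *Fn1*. The others were lower in WT. *Stab1* stood at -1.87, 3.03 and 3.13, the bridging ligand gene *Gas6* at -1.45, 1.55 and 1.45 and *Slc40a1* at -1.91, 1.79 and 1.21. Among chemokine and cytokine genes, *Ccl2* stood at -2.07, 2.09 and 1.35, *Ccl12* at -2.10, 1.13 and 0.49, *Cxcl2* at -3.59, 2.31 and 3.47 and *Tnf* at -4.60, 1.87 and 0.85. *Il10* stood at -1.05 in WT and 1.63 in *Ctnnb1* cKO, with too few UMIs in *Tspan12* KO. *Cxcl2*, *Tnf* and *Il10* had 0 UMIs in the WT cells, where 3 counts correspond to 55.6 CPM, so their WT ratios depend on the added CPM. The WT sums come from 7 cells, 6 of them on the monocyte side, and those of the knockout libraries from 17 of 18 and 210 of 219 macrophage-side cells.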

How the results depend on the processing

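The order of the 3 libraries in the share of gated cells held under every alternative run. With a limit of 20 per 10000 on the rule genes, the *Ctnnb1* cKO share was 2.17% and its count per 100 microglia 13.9, and the macrophage side held 0% of the WT and 100% of the *Tspan12* KO cells. Without Scrublet-marked barcodes the macrophage side held 100% in *Tspan12* KO. A minimum of 2000 UMIs gave a *Ctnnb1* cKO share of 3.32%, and leaving out the endothelial limit gave 3.24%. After thinning the cells to 1000 UMIs, the macrophage side held 0% in WT and 81.3% in *Ctnnb1* cKO, with ties on neither side. Counts of genes past 2-fold rest on low genes. Without a UMI minimum, 1688 were higher than in microglia in WT and 1159 in *Tspan12* KO, and 1106 were higher and 1296 lower in *Ctnnb1* cKO than in *Tspan12* KO. With 50 CPM added, 405 were higher and 547 lower in WT, 266 and 219 in *Tspan12* KO, 164 and 160 in *Ctnnb1* cKO, and 155 and 166 between the knockout libraries, where the values reported above were 1039 and 2968, 752 and 1167, 450 and 401, and 656 and 595. Of 2297 recomputed values of named genes that were past 2-fold as reported, 2297 kept their sign and 29 came under 2-fold. In part this was fixed beforehand. Leaving out the UMI minimum does not change a gene's value, and a larger added CPM cannot change its sign. The scaling shifts given next are too small to reverse a 2-fold ratio. Values with fewer than 20 UMIs under an alternative were skipped. With 50 CPM added, 119 values of named genes left the interval around the reported value and 136 did not. Scaling by trimmed mean of M values shifted all log2 ratios by -0.22 in WT and by -0.02, 0.02 and 0.06 in the other comparisons. Taking the macrophage side only and leaving out the endothelial limit were chosen after seeing the data. No paired analysis was possible because there is 1 library per group. The sides could not be compared within a library, since none had 10 cells on both, so the alternatives for that comparison were not run. Depth limits the WT cells most, where 3 counts correspond to 55.6 CPM, against 20.4 in *Tspan12* KO and 3.82 in *Ctnnb1* cKO (any gene, *Tnf* included).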

Other observations

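*Jun*, *Egr1* and *Fos*, early genes that many stimuli and tissue dissociation switch on within minutes, were chosen after their values were seen and stood lower in the WT gated cells than in microglia. These WT cells numbered 7, with 6 on the monocyte side, so cell makeup and library cannot be told apart here. The log2 ratio of gated cells to microglia was -2.77 for *Jun*, -3.38 for *Egr1* and -1.22 for *Fos* in WT. In the knockout libraries the same genes stood within 2-fold of microglia, at 0.39 and 0.43 for *Jun*, 0.13 and -0.13 for *Egr1* and 0.53 and 0.28 for *Fos*, and the difference was not tested. *Nr4a1*, a factor of patrolling monocytes that is also an early gene, was the other way in WT (2.07) and within 2-fold in the knockout libraries (-0.13 and 0.41). The lectin gene *Lgals3* stood at 1889.5 CPM in the WT cells against 46.1 in microglia (5.08) and near microglia in *Tspan12* KO (-0.09) and *Ctnnb1* cKO (0.41). The lysosomal protease gene *Ctsl* stood at -3.10, -1.99 and -0.64 in the order WT, *Tspan12* KO, *Ctnnb1* cKO.

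Between the knockout libraries, as log2 ratios of *Ctnnb1* cKO over *Tspan12* KO, *Fcgr1*, a high-affinity Fc receptor gene, stood at 1.22 in the gated cells and 1.38 in microglia, and *Tlr4* at -1.27 and -0.44. The inhibitor of DNA binding gene *Id3* had a ratio of -0.36 in the gated cells, where the *Tspan12* KO library held 18 UMIs of it, and 1.69 in microglia. Erythroid genes gave 5, 10 and 126 UMIs in the 7 gated cells of WT, the 18 of *Tspan12* KO and the 219 of *Ctnnb1* cKO, and neutrophil genes 7, 6 and 78.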
